A study of Homo sapiens with 8 samples.

Results

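The NF-kB set described here holds 34 genes: transcription factor subunits, the kinases that release them, receptors and adaptors upstream, inhibitors that NF-kB itself induces, and downstream targets. Members were rows of the expression tables whose Ensembl identifier maps in GENCODE release 29 to a listed symbol. All 34 were found among the 66206 identifiers of each table. They were grouped by known role as 6 genes of the canonical arm, 7 of the noncanonical arm, 8 IkB proteins and feedback inhibitors, 8 receptors and adaptors, and 5 target genes.

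Total RNA of A549, an established human cell line from a lung adenocarcinoma, was sequenced as 8 libraries, 2 in each of 4 groups. LY6K-AS LNA knockdown cells received 25 pmol of locked nucleic acid (LNA) gapmers, antisense oligonucleotides that direct cleavage of their target, to the lncRNA (long non-coding RNA) LY6K-AS. Their scramble LNA controls received 25 pmol of a control gapmer. YWHAG siRNA knockdown cells received 40 pmol of siRNA against YWHAG, which encodes a phosphoserine-binding adaptor protein, and their scramble siRNA controls received 40 pmol of a control siRNA. All cells were transfected with the same lipid reagent and grown in the same serum-containing medium, and no genotype, time after transfection or cytokine treatment is given. Titles carry the numbers LNA1 and LNA3 for LY6K-AS and si1 and si2 for YWHAG, without saying whether different oligonucleotides are meant. They are called knockdown libraries 1 and 2 here, and the scramble siRNA libraries carry their table numbers, 2 and 3. Separate cultures are not stated for the libraries of a group, and a p-value therefore reflects a library-to-library spread that could be technical alone.

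Levels are RPKM, reads per kilobase of merged exon length and per M (1000000) reads of the library. LNA levels were rescaled to that length from gene end minus start. Whether LNA reads were counted over exons only or over whole genes is not settled here, so LNA levels may include intron reads. Library totals were 26.2 and 30.9 M reads in LY6K-AS knockdown, against 33.97 and 30.5 M in scramble LNA, and 34.6 and 33.7 M in YWHAG knockdown, against 34.5 M in both scramble siRNA libraries. The SD over genes of the log2 difference between the libraries of a group was 0.396 in LY6K-AS knockdown and 0.158 in its controls, and 0.434 in YWHAG knockdown and 0.195 in its controls. The annotated antisense gene at LY6K, LNCOC1, had 3 and 8 reads in LY6K-AS knockdown, against 34 and 17 in scramble LNA, a ratio of 0.244 (exact 95% interval 0.115 to 0.474, counting error only). YWHAG had 13.5 and 4.91 RPKM in YWHAG knockdown, against 163 and 158 RPKM in scramble siRNA. Of the epithelial markers EPCAM, CDH1, KRT7, KRT8, KRT18 and KRT19, all 6 reached at least 0.5 RPKM in both tables. Of 10 immune markers, CD14, CD79A and NKG7 reached 0.5 RPKM in at least 1 LNA library and CD14 in at least 1 siRNA library, while CD3E, MS4A1 and FCGR3A were at 0 in all 8 libraries. Summed over the immune list, levels were 4.26 and 3.80 RPKM in LY6K-AS knockdown, against 3.09 and 3.32 RPKM in scramble LNA, and 1.85 and 0.999 RPKM in YWHAG knockdown, against 2.63 and 3.18 RPKM in scramble siRNA. Of 7 fibroblast markers, COL1A1 reached 0.5 RPKM in both tables and LUM in the siRNA table, and the sums were 9.68 and 3.81 RPKM in LY6K-AS knockdown, against 6.54 and 7.19 RPKM in scramble LNA, and 2.34 and 1.09 RPKM in YWHAG knockdown, against 2.53 and 2.70 RPKM in scramble siRNA. None of 6 endothelial markers reached 0.5 RPKM. The part of these markers in the results was not tested. These are bulk samples, so fewer expressing cells and less RNA per cell cannot be told apart.

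NF-kB is a family of dimeric transcription factors held in the cytoplasm by IkB proteins. In the canonical arm, receptors of the tumour necrosis factor, interleukin-1 and Toll-like families signal through adaptors to the IKBKB-IKBKG kinase complex, which marks IkB for destruction and frees RELA dimers. In the noncanonical arm, TRAF2, TRAF3 and BIRC2 keep the kinase MAP3K14 low until a receptor recruits them, after which MAP3K14 and CHUK drive processing of the NFKB2 precursor, the partner of RELB. NF-kB dimers bind kappa-B sites and induce several of their own inhibitors, among them NFKBIA and TNFAIP3, which closes a negative feedback loop.

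RefSeq promoter windows (GRCh38.p14, 250 bases before to 50 after a transcription start) were available for 30 of the 34 members; IKBKB, NFKBIE, RELB and IER3 are named only. The kappa-B consensus, searched on both strands occurred in at least 1 window of 15 of these 30 members, 50%, and in 13.3% of all 27305 genes with a window. The 15 members were REL, NFKB1, MAP3K8, NFKB2, TRAF3, NFKBIA, NFKBIB, NFKBIZ, BCL3, TNFAIP3, TNIP1, BIRC3, IRAK1, TICAM1 and IL32. A match describes letters in the window and not a bound site. The 4 windows below belong to the members with a match that had the smallest p after LY6K-AS knockdown among those whose knockdown libraries both lay beyond both controls. They are shown because all 4 genes were higher in both knockdown libraries; the bases are written 5′ to 3′ on the gene's own strand, and capitals mark the kappa-B matches.

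TNFAIP3 (chr6:137867009-137867308, plus strand): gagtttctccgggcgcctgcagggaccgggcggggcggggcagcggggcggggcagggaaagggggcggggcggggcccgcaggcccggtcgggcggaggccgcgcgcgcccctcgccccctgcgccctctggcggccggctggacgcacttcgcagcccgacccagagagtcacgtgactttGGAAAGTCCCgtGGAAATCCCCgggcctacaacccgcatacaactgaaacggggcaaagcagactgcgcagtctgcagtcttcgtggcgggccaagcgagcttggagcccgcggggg
BIRC3 (chr11:102317234-102317533, plus strand): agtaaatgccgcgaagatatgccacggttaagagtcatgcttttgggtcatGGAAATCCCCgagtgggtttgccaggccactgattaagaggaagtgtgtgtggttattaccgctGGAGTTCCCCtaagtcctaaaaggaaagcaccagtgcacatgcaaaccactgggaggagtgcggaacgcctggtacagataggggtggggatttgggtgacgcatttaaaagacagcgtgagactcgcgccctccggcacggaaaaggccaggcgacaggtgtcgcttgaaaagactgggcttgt
NFKB2 (chr10:102394328-102394627, plus strand): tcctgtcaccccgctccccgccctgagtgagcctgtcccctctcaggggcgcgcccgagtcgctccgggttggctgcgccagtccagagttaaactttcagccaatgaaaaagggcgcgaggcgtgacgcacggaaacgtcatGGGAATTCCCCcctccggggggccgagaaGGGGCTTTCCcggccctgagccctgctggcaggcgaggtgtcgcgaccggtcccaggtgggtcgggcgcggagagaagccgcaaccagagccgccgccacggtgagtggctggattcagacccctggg
TICAM1 (chr19:4831663-4831962, minus strand): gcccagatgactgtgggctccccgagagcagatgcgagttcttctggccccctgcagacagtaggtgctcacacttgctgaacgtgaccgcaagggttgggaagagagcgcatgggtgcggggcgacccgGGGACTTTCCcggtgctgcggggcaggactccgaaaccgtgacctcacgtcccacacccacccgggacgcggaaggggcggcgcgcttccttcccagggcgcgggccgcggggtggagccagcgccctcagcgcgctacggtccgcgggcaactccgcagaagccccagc

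The TNFAIP3 window held 2 matches, whose first bases lay 67 and 55 bases before the start. BIRC3 also held 2, with first bases 199 and 135 bases before the start. The NFKB2 window, the first in the table of 2 that had a match, held 2 separate stretches, and the TICAM1 window held 1 match, beginning 120 bases before the start. Members without a match, IRAK2 and TNFAIP2 among them, were also higher in both LY6K-AS knockdown libraries. MAP3K8 and REL had matches and were lower than both controls in both libraries. Whether a match goes with a change was not tested.

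After LY6K-AS knockdown most of the set was higher than in scramble LNA. The largest log2 changes among members tested were those of the noncanonical dimer genes RELB and NFKB2 and of IRAK2. With the GC trend described below removed, IRAK2 and BIRC3 had the largest. Of 33 members tested, 29 were higher and 4 lower, beside 50.3% and 49.7% of all 14662 genes tested. Their median log2 change was 0.38, beside 0.002 over all genes. Both knockdown libraries lay above both controls in 27 members, against 31.4% of all genes, and below both controls in CHUK, MAP3K8 and REL, against 30.5% of all genes. No member and no other gene passed limma's adjusted p of 0.05 (0% of 14662 genes called, smallest adjusted p = 0.103), with limma's voom variant on recovered reads also at 0. At an unadjusted p under 0.05, 19 members were higher, where 13.6% of all genes were, and 1 was lower, CHUK, where 11.7% were. No gene in this comparison is therefore called changed, and the values below describe these 4 libraries.

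Transcript GC content moved with this comparison. The log2 change over scramble LNA correlated with GC across 14662 genes at a Spearman rho of 0.42 in knockdown library 1 and 0.54 in library 2; genes within a library are not independent replicates. The members tested had a median GC of 57.6%, against 49.8% over all genes tested. With each library's GC trend removed, 28 of the 33 members were higher, beside 49.8% of all genes, and the median log2 change was 0.20. In 20 members both knockdown libraries lay above both controls, beside 27.8% of all genes. At an unadjusted p under 0.05, 13 members were higher and 0 lower, beside 9.20% and 10.2% of all genes. What part GC content had in any single member was not tested. BIRC3 had a transcript GC of 37.4%, TNFAIP3 49.9% and IRAK2 51.9%, and their log2 changes without the trend were 1.07, 0.78 and 1.17. RELB had 65.0% GC and a log2 change of 0.86 without the trend, and NFKB2 had 61.5% and 0.78.

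**Figure D1:**
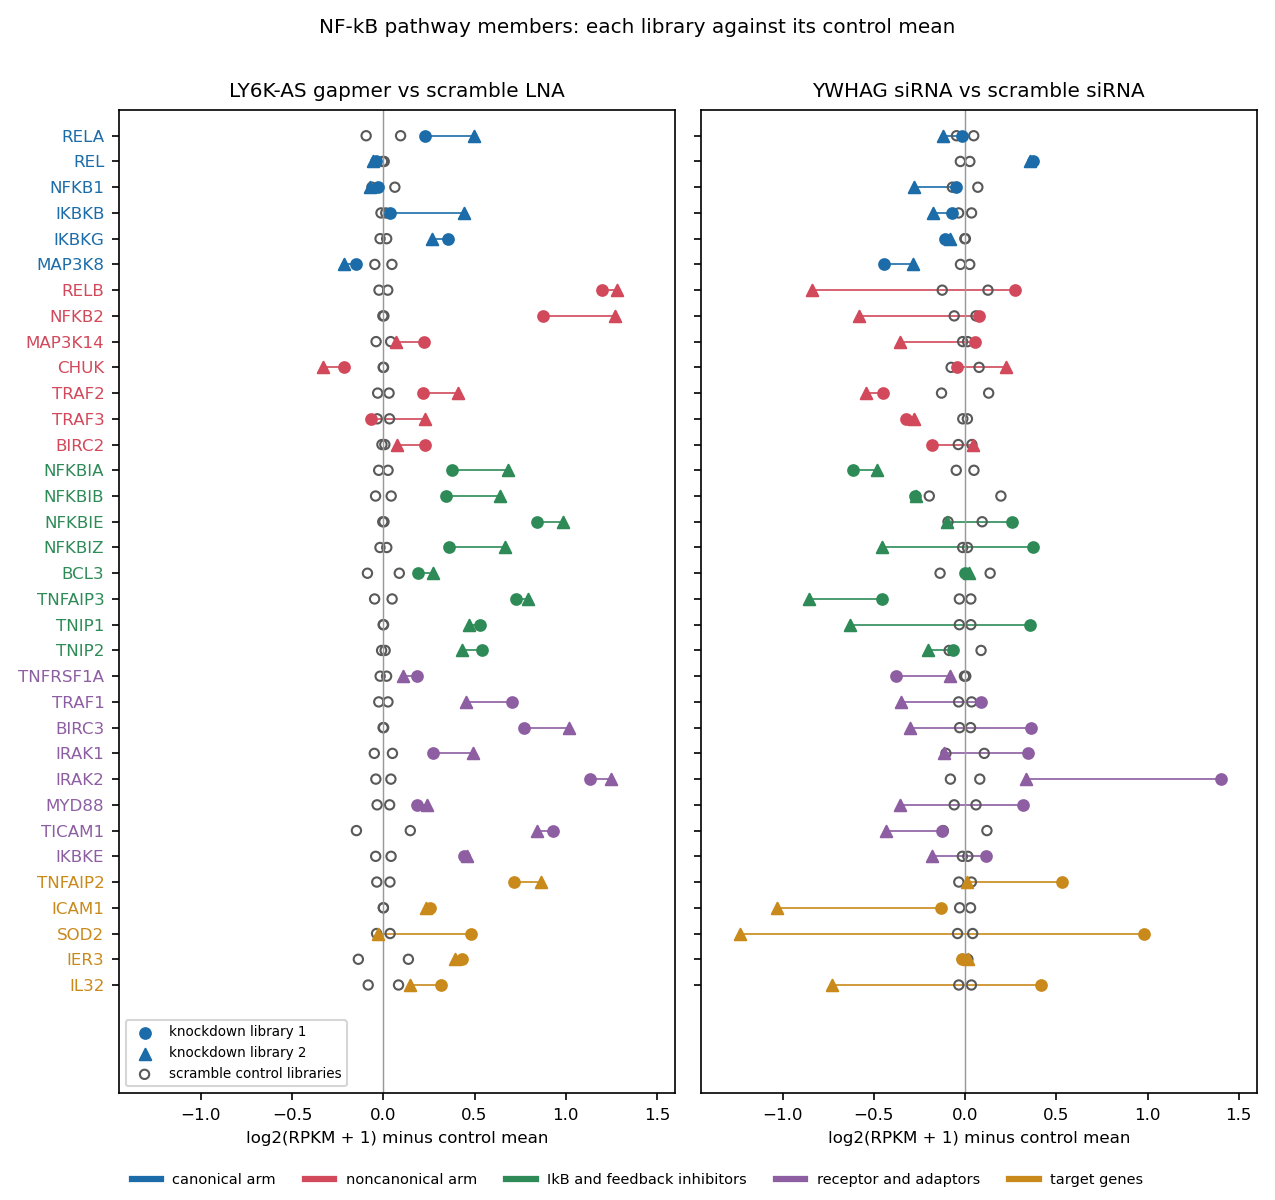
Each row is a member, coloured by role, and the x axis is its log2(RPKM + 1) minus the mean of its 2 control libraries; filled circles are knockdown library 1, filled triangles knockdown library 2 and open circles the controls, with LY6K-AS on the left and YWHAG on the right. On the left 27 of the 33 members tested have both filled symbols above both controls, and ICAM1, under the filter, does too; on the right 13 of 33 have the circle above and the triangle below both controls.

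The 6 genes of the canonical arm had a median log2 change of 0.09 after LY6K-AS knockdown, 3 of them higher and 3 lower. RELA, the main activating subunit, had 23.3 and 28.3 RPKM in LY6K-AS knockdown, against 18.4 and 21.2 RPKM in scramble LNA. Its knockdown libraries lay above both controls, and the log2 change was 0.36 ± 0.14 (SE, limma adjusted p = 0.203). Under the processing alternatives listed below the RELA change was as low as 0.11. NFKB1, whose product pairs with RELA, had 8.42 and 8.13 RPKM in knockdown, against 8.196 and 9.04 RPKM in control, and REL had 0.784 and 0.765 RPKM, against 0.832 and 0.844 RPKM. Both had a log2 change of -0.05, and that of REL turned to 0.13 with the GC trend removed. IKBKB, the catalytic kinase subunit, had 7.33 and 10.0 RPKM in knockdown, against 7.06 and 7.20 RPKM in control. The 2 knockdown libraries differed for IKBKB, with library 2 well above library 1. IKBKG, the regulatory subunit, had 3.45 and 3.19 RPKM, against 2.44 and 2.52 RPKM, a log2 change of 0.31 that was 0.01 with the GC trend removed. IKBKG has a near-identical pseudogene, so its reads are uncertain. MAP3K8, a kinase that links NFKB1 to MAP kinase signalling, had 3.96 and 3.74 RPKM, against 4.68 and 4.33 RPKM.

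In the noncanonical arm the dimer and its regulators separated. RELB (chromosome 19, 45001430 to 45038198, hg38) had 26.9 and 28.5 RPKM in LY6K-AS knockdown, against 10.9 and 11.3 RPKM in scramble LNA. The groups did not overlap, and the difference was many times the distance between libraries of a group: 27.7 ± 1.14 against 11.1 ± 0.285 RPKM (SD, n = 2 each), a ratio of means of 2.49. NFKB2 (chromosome 10, 102394110 to 102402529) had 62.9 and 83.1 RPKM in knockdown, against 33.8 and 33.9 RPKM in control, a ratio of means of 2.16. The log2 changes were 1.24 ± 0.09 for RELB and 1.07 ± 0.16 for NFKB2 (SE, limma adjusted p = 0.103 for each). MAP3K14, the kinase that starts this arm, had 30.5 and 27.3 RPKM in knockdown, against 25.3 and 26.8 RPKM in control, and its log2 change of 0.14 became -0.08 with the GC trend removed; 713 of its exon bases overlap an antisense gene. CHUK, the kinase that MAP3K14 activates, had 5.65 and 5.14 RPKM in knockdown, against 6.72 and 6.73 RPKM in control. CHUK was thus lower in both libraries, by 0.27 on the log2 scale, and stayed lower, at -0.09, with the GC trend removed (GC 37.7%). Of the 3 genes of the complex that restrains MAP3K14, TRAF2 had 36.8 and 42.2 RPKM in knockdown, against 30.8 and 32.2 RPKM, TRAF3 had 13.2 and 16.4 RPKM, against 13.6 and 14.3 RPKM, and BIRC2 had 10.7 and 9.49 RPKM, against 8.91 and 9.02 RPKM. TRAF2 and BIRC2 had both knockdown libraries above both controls, with a log2 change of 0.31 for TRAF2 (limma adjusted p = 0.179), and TRAF3 had them on opposite sides. The TRAF2 change was as low as 0.016 under the processing alternatives listed below. The median over the 7 genes was 0.15, with 6 higher and 1 lower, and it was 0.02 with the GC trend removed.

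All 8 IkB proteins and feedback inhibitors had both LY6K-AS knockdown libraries above both controls, and BCL3 alone turned, to -0.16, with the GC trend removed. Their median log2 change was 0.51, with 7 higher at an unadjusted p under 0.05, beside 13.6% of all genes. Over the processing alternatives listed below this median ranged from 0.36 to 0.65. The lowest log2 changes of NFKBIB and TNIP2 over those alternatives were 0.17 and 0.20, beside 0.49 and 0.48 in the main fit. NFKBIE, an IkB that retains RELA and REL dimers, had 12.6 and 14.0 RPKM in knockdown, against 6.55 and 6.58 RPKM in control. TNFAIP3 (chromosome 6, 137867188 to 137883312), a ubiquitin-editing brake on the pathway, had 3.43 and 3.64 RPKM in knockdown, against 1.59 and 1.77 RPKM in control. Both sat at about the same distance above control in each library, with ratios of means of 2.02 and 2.10. NFKBIA (chromosome 14, 35401511 to 35404749), the main IkB, had 35.8 and 44.5 RPKM in knockdown, against 26.8 and 27.9 RPKM in control. TNIP1, which partners TNFAIP3, had 43.6 and 41.8 RPKM, against 29.9 RPKM in both control libraries, and its relative TNIP2 had 28.3 and 26.2 RPKM, against 19.1 and 19.3 RPKM. The TNIP genes were even between libraries, whereas NFKBIA was higher in library 2 than in library 1. NFKBIB, another IkB, had 48.2 and 59.5 RPKM in knockdown, against 36.6 and 38.9 RPKM in control. NFKBIZ, a nuclear IkB that co-activates some targets, had 2.88 and 3.80 RPKM, against 1.99 and 2.06 RPKM. BCL3, a nuclear IkB that binds NFKB1 and NFKB2 homodimers, had 41.0 and 43.4 RPKM, against 33.6 and 38.1 RPKM, the narrowest gap of the 8.

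Receptors and adaptors were likewise higher in all 8 genes in both knockdown libraries, and all 8 stayed above 0 with the GC trend removed, where their median of 0.52 became 0.35. IRAK2 (chromosome 3, 10164865 to 10243743) encodes an IRAK family member of interleukin-1 and Toll-like receptor complexes. It had 15.3 and 16.7 RPKM in LY6K-AS knockdown, against 6.24 and 6.66 RPKM in scramble LNA. BIRC3 (chromosome 11, 102317450 to 102339403), a ubiquitin ligase at the tumour necrosis factor receptor and itself an NF-kB target, had 10.5 and 12.7 RPKM in knockdown, against 5.74 and 5.73 RPKM in control. The log2 changes were 1.19 ± 0.10 for IRAK2 and 0.90 ± 0.12 for BIRC3 (SE, limma adjusted p = 0.103 for each). TICAM1, the adaptor of Toll-like receptors that sense double-stranded RNA, had 9.26 and 8.69 RPKM in knockdown, against 3.87 and 4.98 RPKM in control, a log2 change of 0.89 ± 0.14. TRAF1, an NF-kB-induced adaptor, had 3.95 and 3.16 RPKM, against 2.09 and 1.98 RPKM, and IKBKE, an IkB kinase relative, had 7.15 and 7.26 RPKM, against 4.83 and 5.18 RPKM. The remaining members of the group had smaller gaps. IRAK1 had 193 and 225 RPKM in knockdown, against 154 and 166 RPKM in control, and its log2 change of 0.38 became 0.03 with the GC trend removed. MYD88, the adaptor that recruits the IRAK kinases, had 14.5 and 15.1 RPKM, against 12.9 and 12.3 RPKM. TNFRSF1A, the main tumour necrosis factor receptor, had 115 and 109 RPKM, against 100.1 and 102.6 RPKM, the smallest log2 change of the group at 0.15.

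Among target genes the values were uneven. TNFAIP2, a tumour necrosis factor-induced gene, had 219 and 243 RPKM in LY6K-AS knockdown, against 130 and 136 RPKM in scramble LNA, and a log2 change of 0.79 ± 0.11 (SE, limma adjusted p = 0.103). ICAM1, a leukocyte adhesion receptor, stayed under the expression filter: it had 28 and 31 reads in knockdown, against 10 and 9 reads in control, a ratio of 3.51 (exact 95% interval 2.06 to 6.24, counting error only). Its knockdown counts were above both controls, but 815 exon bases overlap an antisense gene. SOD2, the mitochondrial superoxide dismutase, had 6.63 and 4.37 RPKM in knockdown, against 4.33 and 4.61 RPKM in control. For SOD2 library 1 was above both controls and library 2 between them. SOD2 shares 845 exon bases with a second annotated SOD2 gene and 298 with WTAP on the opposite strand, so its reads are uncertain. IER3, an immediate early gene, had 3.63 and 3.51 RPKM in knockdown, against 2.78 and 2.12 RPKM, and the cytokine gene IL32 had 2.31 and 1.95 RPKM, against 1.82 and 1.51 RPKM.

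**Figure D2:**
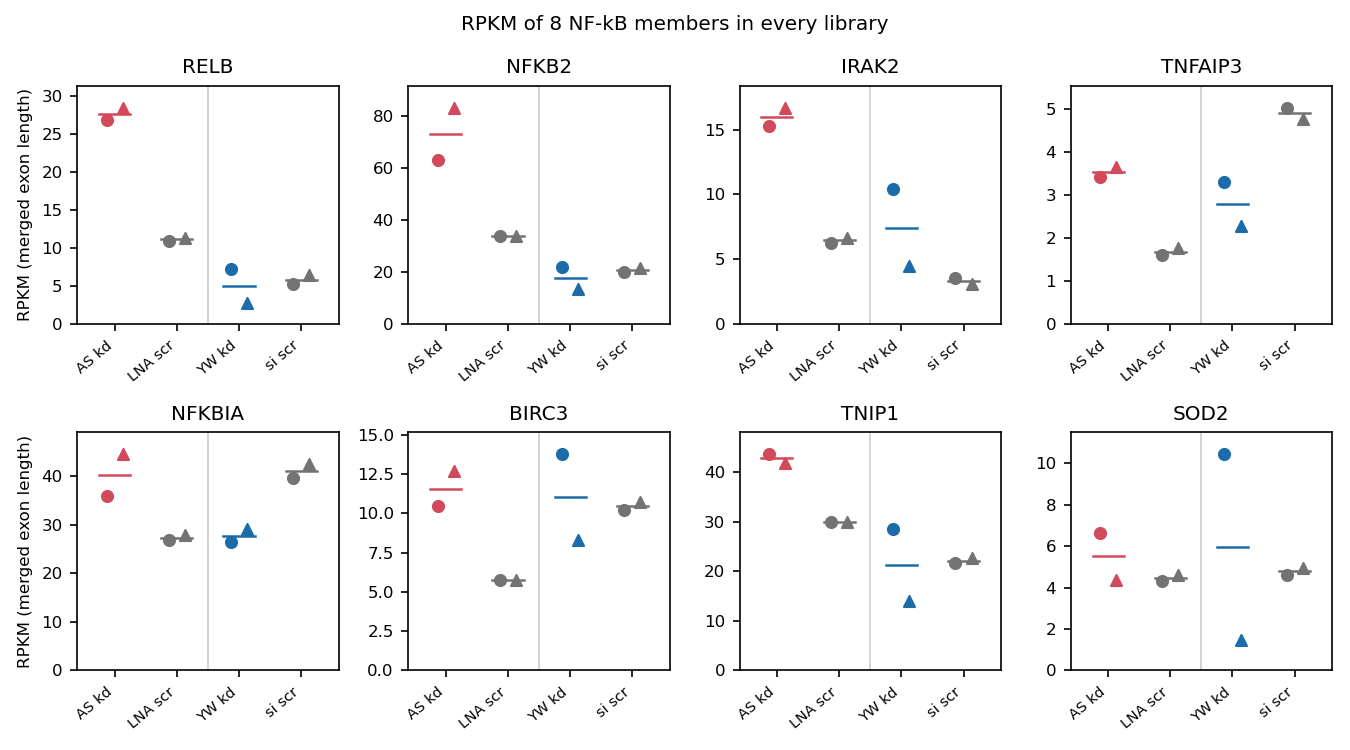
RPKM of 8 members in each of the 8 libraries, on linear axes from 0; AS kd is LY6K-AS knockdown, LNA scr scramble LNA, YW kd YWHAG knockdown and si scr scramble siRNA, circles and triangles are the lower- and higher-numbered library of a group and bars the mean. The 2 tables were normalized separately, so levels left and right of the grey line are not to be compared; SOD2 has YWHAG knockdown points at 10.4 and 1.46 RPKM on opposite sides of the controls.

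After YWHAG knockdown most of the set was lower than in scramble siRNA by the mean of both libraries, but in many members the knockdown libraries lay on opposite sides of the controls. Of 33 members tested, 8 were higher and 25 lower, with a median log2 change of -0.13, beside -0.05 over all 13903 genes tested, of which 57.6% were lower. The direction rested on library 2: without it 16 of the 33 were higher, and without library 1, 6 were. No member passed limma's adjusted p of 0.05, and no other gene did (0% of 13903 genes called, smallest adjusted p = 0.130, voom also 0). At an unadjusted p under 0.05, 1 member was higher, REL, where 7.51% of all genes were, and 4 were lower, MAP3K8, NFKBIA, TNFAIP3 and TRAF2, where 8.9% were. Both knockdown libraries lay above both controls in IRAK2 and REL, against 20.4% of all genes, and below both controls in 11 members, against 30.8%. In 13 members library 1 lay above and library 2 below both controls, against 12.3% of all genes, and the reverse held for BIRC2, against 10.1%. Library 2 was below library 1 in 24 of 33 members, 72.7%, and in 50.6% of all genes. GC content had little relation to these changes, with a Spearman rho of 0.04 in library 1 and -0.003 in library 2, and the same 13 members were split with the GC trend removed, and 11 of them with median-ratio scaling. The depth of these libraries was 34.6 and 33.7 M reads, and YWHAG itself was at 13.5 and 4.91 RPKM. Mitochondrial reads were 14.0% and 18.2% in knockdown libraries 1 and 2, against 15.3% and 18.2% in scramble siRNA libraries 2 and 3. What part any of these had in the split was not tested.

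**Figure D3:**
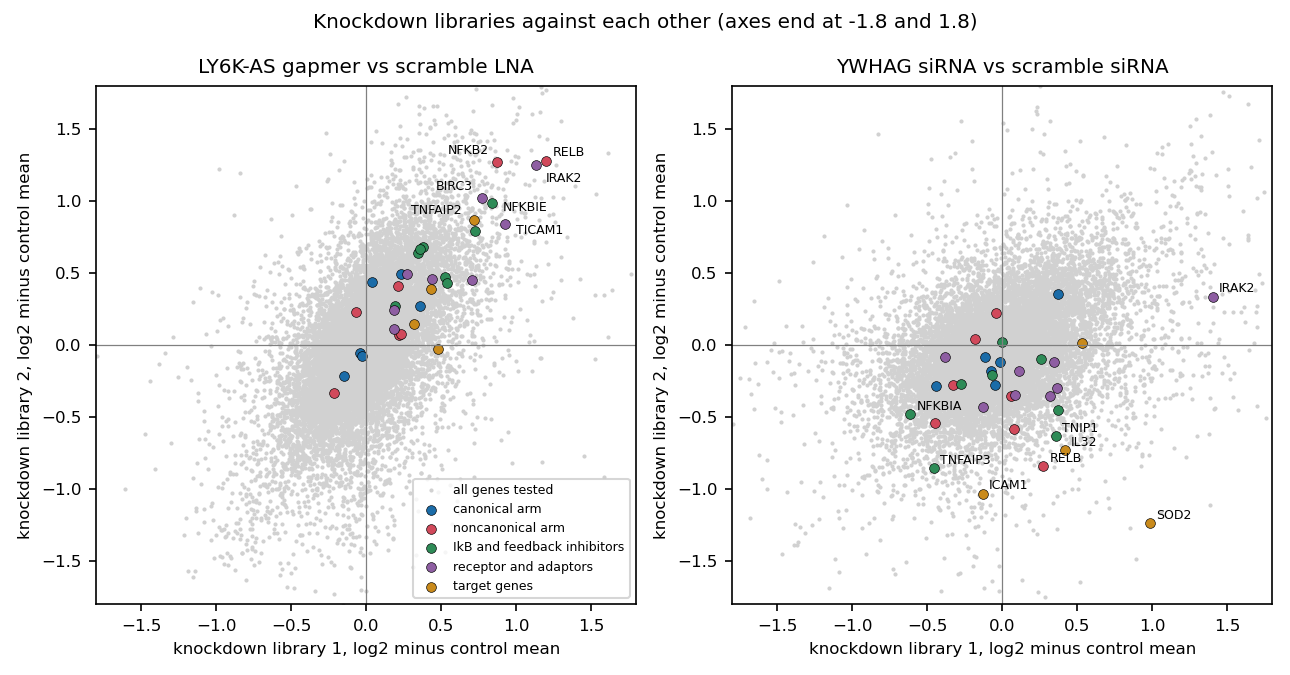
Each point is a gene, with its log2(RPKM + 1) minus control mean in knockdown library 1 on the x axis and in knockdown library 2 on the y axis; grey points are all genes tested and coloured points the members, with genes past 1.8 on either axis not drawn. LY6K-AS members gather in the upper right, while YWHAG members spread toward the lower right, where SOD2 lies at 0.98 and -1.24.

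The widest ratios between the YWHAG knockdown libraries among members were those of the target genes SOD2, ICAM1 and IL32. SOD2 had 10.4 and 1.46 RPKM in YWHAG knockdown libraries 1 and 2, against 4.63 and 4.96 RPKM in scramble siRNA. The libraries of the same knockdown thus differed by a ratio of 7.16 (exact 95% interval 6.69 to 7.68, counting error only). IL32 had 2.30 and 0.490 RPKM in knockdown, against 1.41 and 1.53 RPKM in control, and ICAM1 had 1.44 and 0.304 RPKM, against 1.61 and 1.72 RPKM. For IL32 the knockdown libraries lay on both sides of the controls, and for ICAM1 both lay below. TNFAIP2 had 47.7 and 32.9 RPKM, against 31.8 and 33.5 RPKM. The median log2 difference from control over the 4 targets tested was 0.48 in library 1 and -0.88 in library 2. IER3 had 0 or 1 read in each siRNA library and is given no fold. In the LNA libraries IER3 had 88 to 147 reads. ICAM1 had 10 and 9 reads in scramble LNA but 206 and 220 in scramble siRNA. The cause of these gaps between the tables was not tested. Intervals here cover counting error and not the spread between cultures.

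RELB had 7.18 and 2.78 RPKM in YWHAG knockdown, against 5.21 and 6.39 RPKM in scramble siRNA, and NFKB2 had 21.8 and 13.4 RPKM, against 19.8 and 21.6 RPKM. Both lay above the upper control in library 1 and below the lower control in library 2. MAP3K14 had 11.0 and 8.01 RPKM, against 10.4 and 10.6 RPKM, the same order on a narrower range. TRAF2 had 6.52 and 6.04 RPKM in knockdown, against 8.39 and 10.2 RPKM in control, and TRAF3 had 5.38 and 5.59 RPKM, against 6.93 and 7.07 RPKM. These genes were lower in both libraries, by 0.50 and 0.30 on the log2 scale (limma adjusted p = 0.260 and 0.320). CHUK had 8.57 and 10.5 RPKM, against 9.40 and 8.36 RPKM. BIRC2 lay 0.18 log2 units below the control mean in library 1 and 0.04 above it in library 2.

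Of the 8 IkB proteins and feedback inhibitors, 3 had both YWHAG knockdown libraries below both controls, 3 were split and 2 overlapped the controls. NFKBIA had 26.4 and 29.1 RPKM in knockdown, against 39.6 and 42.5 RPKM in control, and TNFAIP3 had 3.30 and 2.27 RPKM, against 5.03 and 4.77 RPKM. Both were lower in both libraries, with log2 changes of -0.55 ± 0.13 and -0.66 ± 0.18 (SE, limma adjusted p = 0.227 and 0.248). NFKBIB was lower in both libraries as well, at 15.3 and 15.4 RPKM, against 16.2 and 21.6 RPKM. TNIP1 had 28.6 and 13.9 RPKM in knockdown, against 21.6 and 22.6 RPKM in control, and NFKBIZ had 2.45 and 0.944 RPKM, against 1.69 and 1.64 RPKM. These, like NFKBIE at 3.77 and 2.73 RPKM, against 2.74 and 3.26 RPKM, were above control in library 1 and below it in library 2. BCL3 had 14.9 and 15.1 RPKM, against 13.5 and 16.5 RPKM, and TNIP2 had 8.88 and 7.98 RPKM, against 8.75 and 10.0 RPKM.

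Of the receptors and adaptors, IRAK2 alone had both YWHAG knockdown libraries above both controls, at 10.4 and 4.45 RPKM, against 3.56 and 3.08 RPKM. Library 1 carried most of that gap, and the log2 change was 0.87 ± 0.36 (SE, limma adjusted p = 0.324). BIRC3 had 13.8 and 8.32 RPKM in knockdown, against 10.2 and 10.7 RPKM in control, IRAK1 had 58.3 and 42.1 RPKM, against 42.4 and 49.2 RPKM, and MYD88 had 11.1 and 6.57 RPKM, against 9.10 and 8.30 RPKM. TRAF1 and IKBKE also had library 1 above and library 2 below the controls, at 1.04 and 0.510 RPKM, against 0.877 and 0.972 RPKM, and at 2.54 and 1.89 RPKM, against 2.31 and 2.24 RPKM. TNFRSF1A was lower in both libraries, at 64.9 and 79.9 RPKM, against 85.0 and 84.6 RPKM, as was TICAM1 at 3.44 and 2.59 RPKM, against 3.46 and 4.26 RPKM. Over the 8 genes the median difference from control was 0.22 in library 1 and -0.24 in library 2.

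In the canonical arm none of the 6 genes had YWHAG knockdown library 1 above and library 2 below both controls, a count too small to set apart from the 12.3% of all genes with that pattern. REL had 1.03 and 1.00 RPKM in knockdown, against 0.595 and 0.539 RPKM in control. Its libraries were level with each other and above both controls, with a log2 change of 0.36 ± 0.11 (SE, limma adjusted p = 0.262). REL shares 5702 exon bases with an overlapping gene on the same strand, so its reads are uncertain. MAP3K8 had 5.16 and 5.87 RPKM, against 7.52 and 7.23 RPKM, a log2 change of -0.36 ± 0.13. RELA had 11.4 and 10.5 RPKM, against 11.9 and 11.1 RPKM, and NFKB1 had 6.05 and 5.02 RPKM, against 6.67 and 5.96 RPKM. IKBKB had 4.63 and 4.23 RPKM, against 5.06 and 4.77 RPKM, and IKBKG had 2.29 and 2.36 RPKM, against 2.56 and 2.55 RPKM. Each of these 4 was below its control mean in both libraries, and the lowest difference was -0.28, for NFKB1 in library 2.

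**Figure D4:**
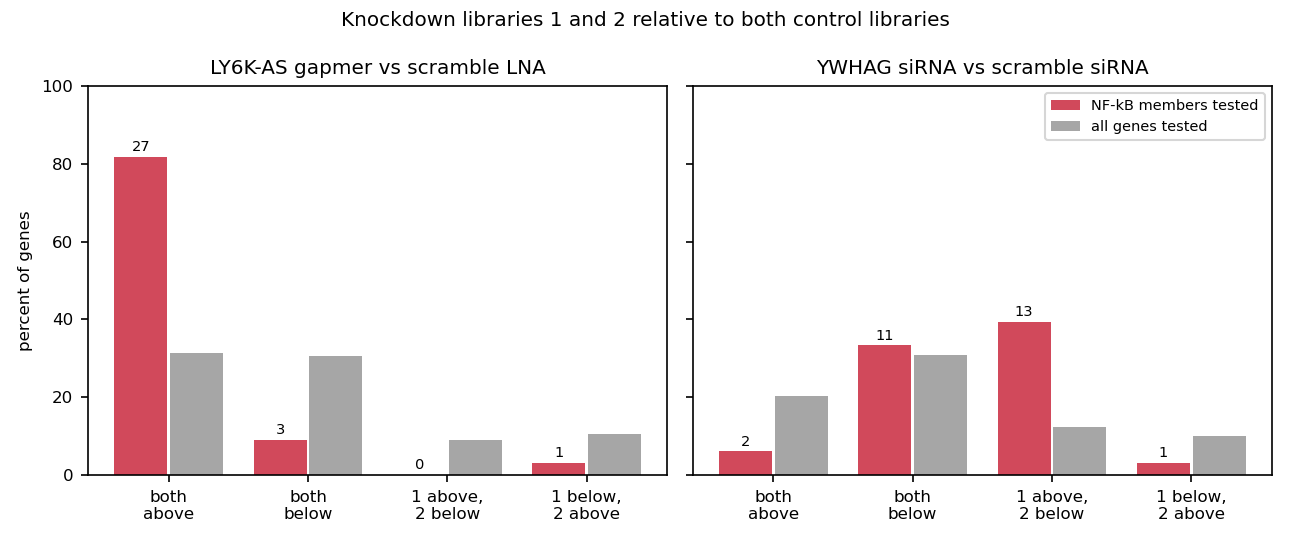
Bars give the percent of the 33 members tested (red, with the number of members above) and of all genes tested (grey) whose knockdown libraries 1 and 2 lay above or below both control libraries, for LY6K-AS on the left and YWHAG on the right. The share of members exceeds that of all genes for both above on the left, 27 of 33 members against 31.4% of all genes. It also does for library 1 above and 2 below on the right, 13 of 33 members against 12.3% of all genes.

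The 2 knockdown effects, each taken within its own table, were set against each other in a fit over all 8 libraries. Of 32 members tested, 30 had a higher log2 change after LY6K-AS knockdown than after YWHAG knockdown, beside 54.3% of all 12861 genes. The median difference over members was 0.42, beside 0.04 over all genes. Across all genes 23 passed limma's adjusted p of 0.05, 0.179%, and none of these was a member. At an unadjusted p under 0.05, 13 members differed upward, where 11.5% of all genes did, and 1 downward, REL, where 8.86% did. The smallest p-values belonged to the feedback inhibitors TNFAIP3, with a difference of 1.41 ± 0.21, and NFKBIA, with 1.08 ± 0.19, and to TICAM1, with 1.16 ± 0.23 (SE, limma adjusted p = 0.0577, 0.0729 and 0.0776). For each of these the log2 change was above 0 after LY6K-AS knockdown and below 0 after YWHAG knockdown. RELB differed by 1.53 ± 0.45 and NFKB2 by 1.33 ± 0.32 (limma adjusted p = 0.134 and 0.109). IRAK2, higher in both libraries of both knockdowns, differed by 0.32 ± 0.43 (limma adjusted p = 0.705). With the GC trend removed, 28 of the 32 members had the higher change after LY6K-AS knockdown, beside 49.6% of all genes. The median difference over members was then 0.26. At an unadjusted p under 0.05, 10 members then differed upward, where 8.16% of all genes did, and 0 downward, where 10.0% did.

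Other genes of the pathway and other NF-kB targets were counted from lists of 68 and 45 genes that exclude the members. After LY6K-AS knockdown, 38 of 57 pathway genes tested were higher and 19 lower, beside 50.3% and 49.7% of all genes. Their median log2 change was 0.09. At an unadjusted p under 0.05, 10 were higher and 4 lower, 17.5% and 7.02% beside 13.6% and 11.7% of all genes. The smallest p-values were those of TRADD, an adaptor of TNFRSF1A, at 19.9 and 19.0 RPKM, against 11.4 and 11.6 RPKM, of the receptor IL17RA at 5.32 and 5.51 RPKM, against 3.53 and 3.57 RPKM, and of the death receptor TNFRSF10A at 20.5 and 23.8 RPKM, against 15.1 and 14.9 RPKM. Of 30 other targets tested, 22 were higher, beside 50.3% of all genes. At an unadjusted p under 0.05, 10 were higher and 0 lower, 33.3% and 0% beside 13.6% and 11.7% of all genes. Both knockdown libraries lay above both controls in 13 of the 30 and below both in 1, beside 31.4% and 30.5% of all genes. In 8, library 1 lay above and library 2 below both controls, beside 9.11% of all genes. The reverse held for 4, beside 10.5%. Neither list was counted with the GC trend removed, so the part of GC content in these counts was not tested. EBI3, a cytokine subunit, had 3.99 and 4.84 RPKM in knockdown, against 1.08 and 1.25 RPKM in control. CD82 had 4.29 and 3.31 RPKM, against 1.126 and 1.122 RPKM, and the ferritin gene FTH1 had 253 and 259 RPKM, against 163 and 155 RPKM.

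After YWHAG knockdown, 17 of 55 pathway genes tested were higher and 38 lower, 2 and 7 of them at an unadjusted p under 0.05. These were 3.64% and 12.7%, beside 7.51% and 8.9% of all genes, and 57.6% of all genes were lower. All 10 pathway inhibitors tested were lower by the mean of both libraries. Both libraries lay below both controls in 6 of them, beside 30.8% of all genes. In 3, library 1 lay above and library 2 below both controls, beside 12.3%. IL1R1, the interleukin-1 receptor, had 12.2 and 9.76 RPKM in knockdown, against 19.9 and 18.2 RPKM in control, NKIRAS1, an inhibitory small GTPase, had 3.999 and 3.86 RPKM, against 6.41 and 5.42 RPKM, and TLR1 had 0.434 and 0.556 RPKM, against 1.02 and 0.909 RPKM. Of 30 other targets tested, 12 were higher and 18 lower, none and 2 of them at an unadjusted p under 0.05, beside the 7.51% and 8.9% of all genes. Library 2 was below library 1 in 26 of these 30, beside 50.6% of all genes, and 12 lay above both controls in library 1 and below both in library 2, beside 12.3% of all genes. PTGS2, an inducible prostaglandin synthase, had 46.2 and 53.7 RPKM in knockdown, against 90.7 and 80.3 RPKM in control, and PTGES, the next enzyme of that route, had 16.5 and 4.30 RPKM, against 30.2 and 33.1 RPKM. JUNB, an AP-1 subunit, was above control in both libraries, at 23.9 and 9.66 RPKM, against 5.37 and 8.02 RPKM.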

How the data were processed

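The authors deposited RPKM values in 2 tables, normalized separately, one for the LNA and one for the siRNA libraries. Per the submitters' processing notes the tools were STAR, featureCounts, Subread and Picard and the build hg38, without versions or roles. Strand use in counting was not stated. Whole reads were recovered from the deposited RPKM within 0.05 reads for 100% of values above 0, with gene end minus start as the length in the LNA table and merged exon length in the siRNA table, so LNA values were rescaled to merged exon length. Of 66206 identifiers, 57055 matched GENCODE 29 (24 members in the same version, 10 in another, whose lengths were inferred from whole reads); the other 9151 were tested in the siRNA table only. At these depths 3 reads correspond to 0.0868 to 0.115 reads per M (1000000) reads.

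Each knockdown was compared with its own control by limma (version 3.58.1, R 4.3.3, trend option) on values of log2(RPKM + 1). Genes needed at least 0.5 RPKM in at least 2 of 4 libraries; tests were two-sided, Benjamini-Hochberg adjusted over all genes, at a threshold of 0.05. Fold changes on this scale understate low genes. Log2 values of members are differences from the mean of both controls. Intervals of read ratios are exact conditional 95% intervals. Alternatives were the values as deposited, a pseudocount of 0.1, no filter, median-ratio scaling, voom, removal of a GC trend, a spread pooled over 8 libraries, a replicate block and leaving out each library. All 34 members are named; other list genes are named by the 3 smallest p-values per list. The members and lists were chosen with earlier results of these data known. Figures were drawn with matplotlib 3.10.9 (Python 3.11.15).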

Additional observations from a re-analysis of the deposited data

How the results depend on the processing

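With 2 libraries a group, calls rest on how the spread is estimated. Genes past the adjusted p of 0.05 numbered 0 in both knockdown comparisons under a pseudocount of 0.1, no filter, median-ratio scaling, voom and GC trend removal, but 64 for LY6K-AS and 214 for YWHAG with the spread pooled over 8 libraries, none of them a member. Leaving out a library gave 0 to 7727 genes for LY6K-AS, since the remaining knockdown library then takes its spread from the controls: without knockdown library 1, 22 of 33 members were higher and 1 lower at the adjusted p, beside 27.5% and 25.2% of all genes, and without library 2, 18 and 1, beside 14.6% and 15.1%. YWHAG gave 0 in each case. The difference between effects gave 23 genes, 44 with values as deposited, and 0 to 1185 with a library left out; of 32 members it called 14 without YWHAG knockdown library 1, 3 without YWHAG knockdown library 2 and 3 without LY6K-AS knockdown library 1, beside 5.58%, 5.71% and 9.21% of all genes. The median over members was 0.20 for LY6K-AS with the GC trend removed and 0.33 to 0.44 with a library left out, and -0.28 to -0.0027 for YWHAG. For the difference it was 0.26 with the GC trend removed and 0.34 to 0.72 with a library left out, highest without YWHAG knockdown library 1.

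Members whose log2 change turned had small or split values, and the cause was not tested. With the GC trend removed these were, for LY6K-AS, REL (0.13), MAP3K14 (-0.084) and BCL3 (-0.16), for YWHAG, NFKBIZ (0.040), BCL3 (-0.035), MYD88 (0.043) and the median of receptors and adaptors (0.0082), and for the difference, BCL3 (-0.16) and IRAK1 (-0.085). Median-ratio scaling turned the YWHAG receptor and adaptor median (0.024), MYD88 (0.038) and IKBKE (0.0096), and values as deposited turned the difference for IRAK2 (-0.46). Leaving out 1 library moved LY6K-AS changes across 0 for NFKB1 (-0.11 to 0.013), TRAF3 (-0.067 to 0.23) and SOD2 (-0.027 to 0.48). It moved the YWHAG medians of receptors and adaptors (-0.24 to 0.22) and target genes (-0.88 to 0.48) across 0, each low end without knockdown library 1 and each high end without library 2. The same held for RELB (-0.84 to 0.27), NFKB2 (-0.58 to 0.077), MAP3K14 (-0.36 to 0.056), NFKBIE (-0.097 to 0.26), NFKBIZ (-0.45 to 0.37), TNIP1 (-0.63 to 0.36), TRAF1 (-0.35 to 0.085), BIRC3 (-0.30 to 0.36), IRAK1 (-0.12 to 0.34), MYD88 (-0.36 to 0.32), IKBKE (-0.18 to 0.11), SOD2 (-1.24 to 0.98) and IL32 (-0.73 to 0.42). CHUK (-0.044 to 0.22) and BIRC2 (-0.18 to 0.041) ran the opposite way, and BCL3 ranged over -0.13 to 0.15 with its controls. The difference crossed 0 without YWHAG knockdown library 2 for SOD2 (-0.76 to 1.46), IL32 (-0.19 to 0.96), IRAK2 (-0.21 to 0.85), MYD88 (-0.11 to 0.57) and the target gene median (-0.19 to 0.96). The counts of members with both knockdown libraries above or both below the controls under scaling and GC removal were chosen after seeing the data and stayed within 1.5 times. Of the 20 LY6K-AS members above both controls with the GC trend removed, 18 were among the 27 of the main count. LY6K-AS members with library 1 above and library 2 below both controls went from 0 to 1 with median-ratio scaling and 3 with the GC trend removed.

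With the replicate block for LY6K-AS, where the shared numbers come from labels only (correlation of same-numbered deviations 0.080 over 14662 genes), 0 genes passed and the median stayed at 0.38. At an unadjusted p under 0.05, 18 members were then higher, beside 13.5% of all genes. No paired analysis was possible for YWHAG because its control columns carry other numbers than the labels.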
